A study of Arabidopsis thaliana with 42 samples.

Results

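Abscisic acid metabolism and the group A protein phosphatases 2C (PP2Cs) that hold its signal back were followed through 10 genes, chosen by name from the 24843 loci of a table of tag counts from Arabidopsis thaliana leaves. NCED3 (AT3G14440), ABA3 (AT1G16540) and AAO3 (AT2G27150) make the hormone, CYP707A1 (AT4G19230) and CYP707A3 (AT5G45340) remove it, and ABI1 (AT4G26080), ABI2 (AT5G57050), HAB1 (AT1G72770), HAI1 (AT5G59220) and HAI2 (AT1G07430) encode phosphatases. All 10 had a row in the table and passed the filter on low counts. HAI1 and CYP707A1 held 10 counts or more in only 3 and 2 of 21 mock libraries, and CYP707A3 in 0 of 21 Pma libraries. The filter scales its minimum of 10 counts to library size, so these raw counts only approximate it. These 3 genes reached the minimum mostly in the treatment where they were high, which favoured a difference between treatments. Counts of calls are therefore also given without them. The 42 libraries formed 14 groups, 7 genotypes by 2 treatments, and each group had 1 library from each of 3 independent experiments. The genotypes, all labelled as ecotype Col-0, were wild type, cbp60a, chp60g sard1 (so spelled in the label; taken here as cbp60g sard1), the triple mutant cbp60a cbp60g sard1, cml46 cml47, wrky70 and sid2. The labels name no alleles. Leaves 6 to 8 of 30-day-old plants received either 5 mM magnesium sulfate (mock) or, in the same solution, Pseudomonas syringae pv. maculicola ES4326 (Pma) at an optical density of 0.0002, and were sampled after 24 h, with 2 leaves in a sample. A library is therefore a pool of whole leaf tissue, in which fewer cells of a type and less RNA per cell cannot be told apart.

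Abscisic acid is a stress hormone made from carotenoids. NCED enzymes cleave 9-cis carotenoids, the step that usually limits synthesis, and AAO3 oxidises abscisic aldehyde to the hormone with a molybdenum cofactor that ABA3 activates. CYP707A enzymes hydroxylate it and so start its breakdown. Receptors of the PYR/PYL family bind the hormone and then inhibit the group A PP2Cs, which frees SnRK2 kinases to phosphorylate transcription factors and ion channels. PP2C genes are themselves induced by the hormone in Arabidopsis, which makes them both brakes on the pathway and readouts of it. In leaves the hormone closes stomata, and in Arabidopsis infected with Pseudomonas it is known to act against salicylic acid defence. Of the mutated genes, ICS1 (the gene altered in sid2) makes salicylic acid, CBP60g and SARD1 are factors that activate ICS1, and CBP60a, CML46, CML47 and WRKY70 are regulators placed around that defence.

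The region just upstream of a gene holds part of what sets its transcription, and in abscisic acid biology the core ACGTG, bound by bZIP factors of the ABF group, is the element most often looked for. In TAIR10.1 (RefSeq) the genes span chr3:4831286-4834015 (NCED3), chr1:5659370-5665488 (ABA3), chr2:11601727-11608450 (AAO3), chr4:10521259-10523961 (CYP707A1), chr5:18368532-18371021 (CYP707A3), chr4:13219915-13222376 (ABI1), chr5:23087122-23089631 (ABI2), chr1:27389948-27393327 (HAB1), chr5:23894404-23896939 (HAI1) and chr1:2280746-2282828 (HAI2). The 300 bases before the annotated start were read for each of the 10 genes from that build, while the deposited counts were made on TAIR10. ACGTG, searched on both strands, was present upstream of 6 of the 10 genes and of 25.6% of 27437 promoters of the same length. The longer CACGTG, which contains ACGTG on each strand, was present in 3 of the 10 and in 7.09% of all. TTGAC, the core of the site that WRKY factors bind, was present on either strand in 9 of 10 and in 50.4% of all, and GAAATTT, part of a sequence that CBP60g and SARD1 are reported to bind, in 3 of 10 and in 14.9% of all. A match describes the letters of the window and does not show a bound site. Windows are printed for the 2 hydroxylase genes, which moved in opposite directions, and for 2 PP2C genes that rose and differ most in the element. They lie at chr4:10520959-10521258 on the plus strand for CYP707A1, chr5:18371022-18371321 on the minus strand for CYP707A3, chr5:23896940-23897239 on the minus strand for HAI1 and chr1:2282829-2283128 on the minus strand for HAI2. Each reads 5′ to 3′ toward the gene, and capitals mark ACGTG in either orientation.
CYP707A1: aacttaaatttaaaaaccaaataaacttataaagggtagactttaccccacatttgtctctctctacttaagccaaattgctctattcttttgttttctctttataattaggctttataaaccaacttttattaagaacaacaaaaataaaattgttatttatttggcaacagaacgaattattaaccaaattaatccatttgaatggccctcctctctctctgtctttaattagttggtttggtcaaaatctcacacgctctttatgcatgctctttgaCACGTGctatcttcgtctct
CYP707A3: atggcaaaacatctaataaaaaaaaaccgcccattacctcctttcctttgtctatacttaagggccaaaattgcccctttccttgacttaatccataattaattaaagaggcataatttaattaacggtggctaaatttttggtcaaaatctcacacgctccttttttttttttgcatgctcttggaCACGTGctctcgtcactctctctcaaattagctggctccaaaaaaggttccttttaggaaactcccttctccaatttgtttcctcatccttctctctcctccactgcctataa
HAI1: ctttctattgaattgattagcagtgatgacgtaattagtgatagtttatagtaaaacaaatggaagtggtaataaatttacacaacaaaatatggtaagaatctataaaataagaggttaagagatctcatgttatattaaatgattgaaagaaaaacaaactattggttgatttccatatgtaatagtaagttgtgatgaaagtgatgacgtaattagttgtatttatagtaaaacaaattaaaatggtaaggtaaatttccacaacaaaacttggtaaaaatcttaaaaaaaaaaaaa
HAI2: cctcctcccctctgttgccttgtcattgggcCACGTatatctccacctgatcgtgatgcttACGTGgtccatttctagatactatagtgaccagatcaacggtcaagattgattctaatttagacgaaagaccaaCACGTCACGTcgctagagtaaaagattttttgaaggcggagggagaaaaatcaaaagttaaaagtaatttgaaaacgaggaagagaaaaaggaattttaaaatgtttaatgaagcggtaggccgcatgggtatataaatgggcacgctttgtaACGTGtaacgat
CYP707A1 and CYP707A3 each held a CACGTG, and their windows shared an identical run of 23 bases, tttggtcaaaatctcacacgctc, which contains TTGAC on the other strand. Over the 45 pairs of the 10 windows the longest shared run had a median of 10 bases, and the next longest was 15. HAI2 held ACGTG 5 times and HAI1 none. NCED3, AAO3 and ABI2 also had no ACGTG, ABA3 had it 5 times with each orientation of a CACGTG counted, and ABI1 and HAB1 had it once each.

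Libraries held 919335 to 2691069 counts, and levels are given as CPM, the count scaled to the library's TMM-adjusted total. Pma changed the leaf transcriptome widely, with 66.3% of 15161 tested genes passing in wild type. The mutated gene checks the labels: in Pma leaves ICS1 had a log2 fold change of -8.06 in sid2 and SARD1 -4.62 in chp60g sard1. In mock leaves ICS1 (-3.78) and CML46 (-3.53) passed, while SARD1 (1.12) and CBP60G (0.42) in chp60g sard1, SARD1 (0.79) in the triple mutant and CML47 (0.58) in cml46 cml47 lay above 0 without passing. In cbp60a the value for CBP60A (-1.18, adjusted p = 0.192) did not pass, nor did that for CML47 in cml46 cml47 (-1.58, adjusted p = 0.173), and 3' tags can lie outside the altered part of a gene. Summed mesophyll markers (4 genes) lay at 21246 to 40996 CPM in mock and 1260.3 to 15574 CPM in Pma libraries, and all 4 fell in wild type. Epidermal markers (4 listed, 3 tested, all 3 lower) went from 829.8 to 2095 CPM in mock to 10.8 to 206 CPM in Pma. Guard cell markers, from the cells best known for abscisic acid responses, summed to 62.5 to 113 CPM in mock and 63.3 to 156 CPM in Pma (2 of 4 tested lower, 1 higher), and vascular markers to 502 to 678 and 550.2 to 1131 CPM (2 of 5 higher, 0 lower). Over all libraries no marker was without counts, but 1 epidermal marker was at 0 in chp60g sard1 mock leaves and in every Pma group but sid2 and the triple mutant. The part of cell composition in the results was not tested.

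In wild type leaves all 10 genes passed the test between Pma and mock, 9 higher and 1 lower, where 66.3% of all tested genes passed (32.3% higher, 34% lower). The median log2 fold change of the 10 was 1.98, beside -0.02 over all tested genes. Without HAI1, CYP707A1 and CYP707A3 it was 7 of 7 higher, with a median of 1.94. The share of genes called was so high that a call by itself says little here, and the sizes carry more. Tests throughout are edgeR's quasi-likelihood F test with Benjamini-Hochberg adjustment over all tested genes, and ± after a log2 fold change (also called the change) is its standard error. All 3 synthesis genes rose. NCED3, the cleavage enzyme, was at 15.7, 20.5 and 15 CPM in the mock libraries of experiments 1, 2 and 3 and at 40.3, 62.2 and 115 CPM in the Pma libraries. The groups did not overlap, and the log2 fold change was 1.94 ± 0.48 (adjusted p = 8.41e-04). ABA3, the cofactor sulfurase, was at 3.26, 9.51 and 3.76 CPM in mock and 24.7, 23.7 and 18.5 CPM in Pma, again without overlap. Its change was 2.02 ± 0.40 (adjusted p = 3.31e-05), or 2.76 without the mock library of experiment 2. AAO3, which completes synthesis, was at 7.18, 8.78 and 16.9 CPM in mock and 24.7, 56.5 and 40.4 CPM in Pma, and rose by 1.86 ± 0.33 (adjusted p = 8.88e-06). Every Pma library of AAO3 was above every mock library, and without the mock library of experiment 3 the change was 2.45. AT2G27160 overlaps AAO3 on the opposite strand and had 0 counts in all 42 libraries.

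The 2 hydroxylase genes, whose products act on the same hormone, went opposite ways. Both reached the filter's minimum mostly in a single treatment, CYP707A1 in Pma and CYP707A3 in mock, and the filter favoured these directions. CYP707A1 held 2, 1 and 0 counts in the wild type mock libraries (0 to 1.31 CPM) and stood at 8.60, 9.0 and 3.93 CPM in Pma. From 3 counts against 34, and after scaling to library size, it rose 9.23-fold (95% counting interval 2.90 to 47), with an adjusted p of 0.00377 that became 0.0532 without experiment 2. The fitted log2 change, which depends on the prior count at such low counts, moved from 3.11 to 3.92 without the mock library of experiment 1. CYP707A3 was at 15.7, 3.66 and 5.64 CPM in mock and at 1.07, 1.64 and 0 CPM in Pma. All 3 Pma libraries were below all 3 mock libraries, and the log2 fold change was -3.19 ± 1.00 (adjusted p = 9.53e-04; 0.0558 without experiment 1). The Pma side of CYP707A3 rests on 4 counts in 3 libraries, and the change was -2.60 without the mock library of experiment 1 and -3.80 without the Pma library of experiment 2.

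All 5 PP2C genes rose in wild type, with a median log2 fold change of 2.17, and they differed widely in the size of the rise. ABI1, the founding member of the family, was at 30.02, 38.8 and 28.2 CPM in mock and 144, 225 and 218 CPM in Pma. It rose by 2.56 ± 0.25 (adjusted p = 8.07e-10), and every Pma library was above every mock library. The end of ABI1 shares 22 bases with MEK1 (AT4G26070) on the other strand, which held 1523 counts over all libraries, and the strand setting of the counting was not given in the sources used here. HAB1, a close relative that is also induced by the hormone, was at 20.2, 59.2 and 19.7 CPM in mock and 85.4, 179 and 141 CPM in Pma, a change of 2.17 ± 0.28 (adjusted p = 7.02e-08). Its mock library of experiment 2 stood well above the other mock libraries. HAI1, of the highly induced branch of the family, was at 1.31, 1.46 and 2.82 CPM in mock and 96.2, 178 and 214 CPM in Pma, and rose by 6.41 ± 0.86 (adjusted p = 1.61e-09). HAI2, its paralog, was at 4.57, 8.78 and 2.82 CPM in mock and 11.3, 41.7 and 15.1 CPM in Pma, a change of 1.92 ± 0.66 (adjusted p = 0.00873; 0.0651 without experiment 2). ABI2, the paralog of ABI1, moved least: 15, 30.7 and 12.2 CPM in mock and 22, 52.4 and 32 CPM in Pma. Its groups overlapped, the change was 0.87 ± 0.34 (adjusted p = 0.0236), and the call ended without the wild type Pma library of experiment 2 (adjusted p = 0.0794) or 3 (0.0608), without the mock library of experiment 3 (0.0518), and without the experiment block (0.0989).

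**Figure D1:**
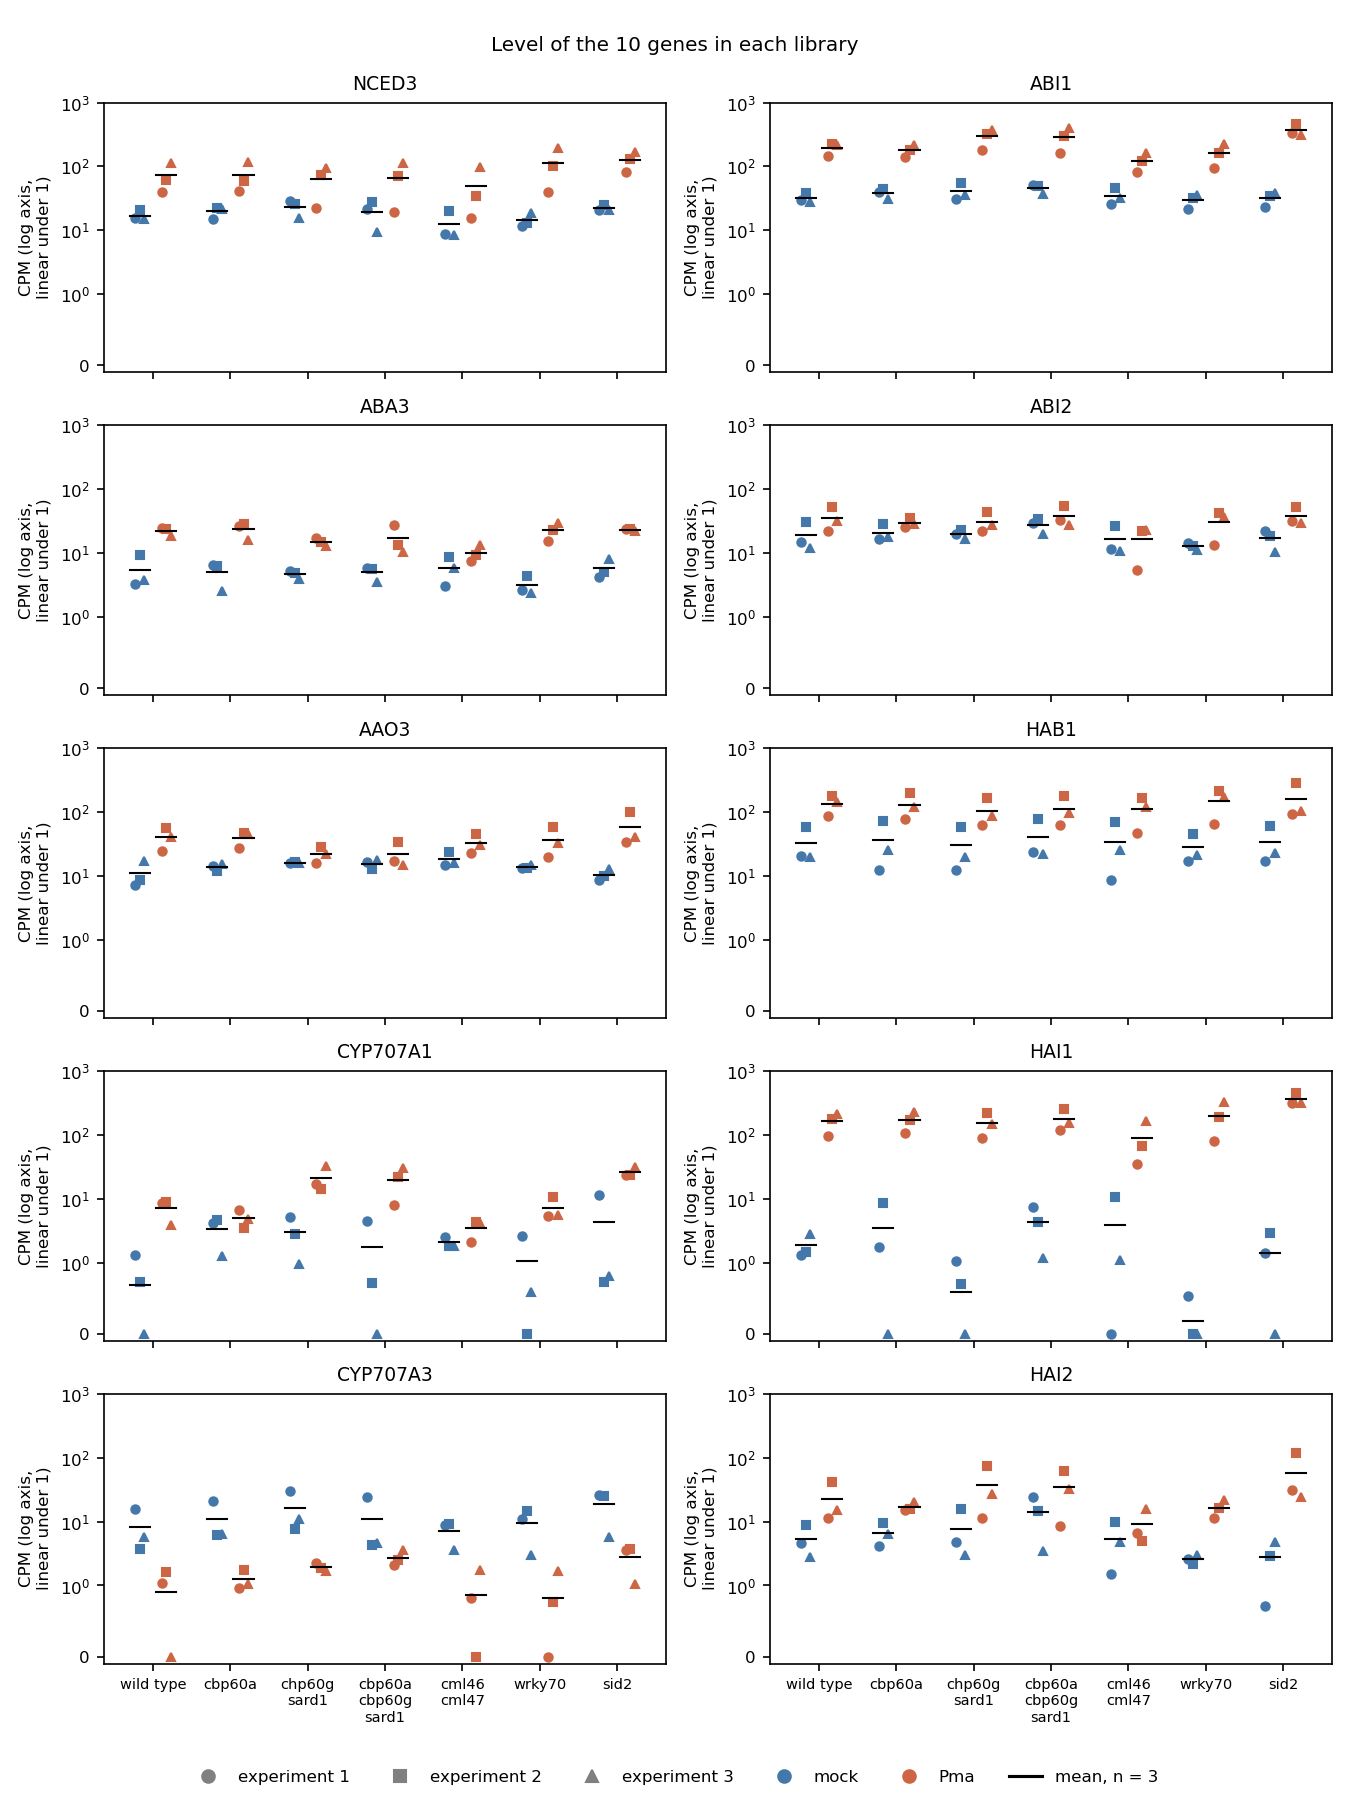
Level of each gene (CPM, log axis that is linear under 1) in every library, by genotype, with mock in blue, Pma in orange, a marker shape for each experiment and a bar at the mean of 3. HAI1 and ABI1 separate all 21 Pma from all 21 mock libraries, CYP707A3 is low in every Pma group, and ABI2 overlaps in most genotypes.

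Across all 7 genotypes, 59 of 70 tests of Pma against mock passed, 52 higher and 7 lower, and the 7 lower calls were all CYP707A3. Without the 3 genes that reached the filter's minimum mostly in a single treatment, 40 of 49 tests passed, 40 higher and 0 lower (edgeR). Wild type, wrky70 and sid2 passed for 10 of 10 genes, cbp60a and chp60g sard1 for 8, the triple mutant for 7 and cml46 cml47 for 6. The share of all tested genes that passed was 62.6% in sid2, 60.7% in wrky70, 63.2% in cbp60a, 57.1% in cml46 cml47, 58.3% in the triple mutant and 57.4% in chp60g sard1. Median log2 fold changes of the 10 genes were 2.47 in wrky70, 2.39 in sid2, 1.81 in chp60g sard1, 1.63 in cbp60a, 1.48 in the triple mutant and 0.93 in cml46 cml47, beside medians over all tested genes between -0.04 and 0.00. These medians describe the genotypes, and the differences between them were tested gene by gene only.

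ABI1, HAB1, HAI1 and NCED3 rose in every genotype. ABI1 ranged over mock libraries of all genotypes from 21.5 to 55.1 CPM and over Pma libraries from 81.6 to 459.6 CPM, without overlap. Its log2 fold change ran from 1.79 ± 0.25 in cml46 cml47 to 3.53 ± 0.25 in sid2. HAI1 ranged from 0 to 10.5 CPM in mock and from 34.8 to 456 CPM in Pma, also without overlap. Among genotypes with more than 3 counts of HAI1 in each group, fitted changes ran from 4.72 ± 0.65 in cml46 cml47 to 7.92 ± 0.91 in sid2. Single libraries moved them, to 6.86, 4.10 and 4.0 in cml46 cml47 without the mock library of experiment 2, the mock library of 3 and the Pma library of 3, and to 8.62 in sid2 without the mock library of 2. In chp60g sard1 mock leaves HAI1 held only 3 counts, which gave a ratio of 206-fold (95% counting interval 70.3 to 1003), and in wrky70 mock leaves it held 1 count, which gave 955-fold (95% counting interval 171 to 37754). HAB1 changed by 1.51 ± 0.28 in the triple mutant, where the call ended without the experiment block (adjusted p = 0.0961), up to 2.41 ± 0.28 in wrky70. NCED3 changed by 1.13 ± 0.47 in chp60g sard1 (adjusted p = 0.0411), 1.46 ± 0.48 in the triple mutant (adjusted p = 0.0109) and 2.77 ± 0.48 in wrky70 (adjusted p = 1.40e-05). The first of these NCED3 calls ended without the chp60g sard1 mock or Pma library of experiment 2 or 3 (adjusted p = 0.089 to 0.175) and had a change of 1.83 without the mock library of experiment 1, and the triple mutant call without either of its libraries of experiment 3 (0.0648 and 0.0699). In cml46 cml47 (change 1.80 ± 0.48) the NCED3 call ended without the Pma library of experiment 3 (0.0614).

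ABA3 rose in 6 genotypes. In cml46 cml47 it was at 3.06, 8.66 and 5.81 CPM in mock and 7.46, 9.37 and 13.6 CPM in Pma, which overlapped, and its change of 0.81 ± 0.38 did not pass (adjusted p = 0.0682). It passed when any 1 of 20 libraries was left out, 18 of them of other genotypes; leaving out the cml46 cml47 Pma library of experiment 1 gave 0.0357 and the mock library of experiment 2 gave 0.0362. The largest change of ABA3 was in wrky70, at 2.88 ± 0.43. CYP707A3 fell in all 7 genotypes, with changes from -1.87 ± 0.71 in the triple mutant to -3.40 ± 0.96 in wrky70, and mock and Pma libraries never overlapped within a genotype. The wrky70 value was -2.29 without its Pma library of experiment 1, -2.78 without its mock library of 2 and -4.95 without its Pma library of 3. Its call in the triple mutant (adjusted p = 0.0185) ended without the mock library of experiment 1 (0.395) or the Pma library of experiment 1 (0.192). CYP707A1, the other hydroxylase, rose in 5 genotypes and in cbp60a and cml46 cml47 did not pass. In cbp60a it was at 4.12, 4.70 and 1.28 CPM in mock and 6.72, 3.44 and 4.79 CPM in Pma (change 0.49 ± 0.76, adjusted p = 0.580), and in cml46 cml47 the change was 0.69 ± 0.79 (adjusted p = 0.459). In chp60g sard1 it changed by 2.72 ± 0.68, in the triple mutant by 3.37 ± 0.85, in wrky70 by 2.53 ± 0.92 and in sid2 by 2.61 ± 0.64. The mock library of experiment 1 was the highest of 3 in each of these lines, and without it the changes were 3.39, 5.29, 4.08 and 5.01.

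ABI2 and HAI2 were the PP2C genes with the fewest calls. ABI2 passed in wild type, wrky70 (change 1.15 ± 0.34) and sid2 (1.08 ± 0.34), and its Pma and mock libraries were apart only in sid2. The wrky70 call ended without the wrky70 Pma library of experiment 3 (adjusted p = 0.0589). It also ended without all of experiment 2 (0.134) or 3 (0.126), and with wrky70 fitted alone (0.0820). The sid2 call ended without all of experiment 2 (0.140) or 3 (0.0660). In cml46 cml47 ABI2 stood at 11.7, 26.6 and 10.9 CPM in mock and 5.39, 22.4 and 23 CPM in Pma, a change of 0.06 ± 0.34 (adjusted p = 0.890). HAI2 changed most in sid2, from 0.711, 2.89 and 4.85 CPM in mock to 31.4, 116 and 24.1 CPM in Pma, at 4.18 ± 0.75 (adjusted p = 3.71e-06), or 5.01 without the mock library of experiment 3. It did not pass in cml46 cml47 (change 1.02 ± 0.64, adjusted p = 0.166; 0.0449 without its Pma library of experiment 2) or in the triple mutant (change 0.88 ± 0.56, adjusted p = 0.190). The triple mutant mock library of experiment 1 held HAI2 at 23.8 CPM against 14.4 and 3.51 CPM in the other 2, and without it the change was 2.19 with an adjusted p of 0.00338. In cbp60a HAI2 rose by 1.51 ± 0.65 (adjusted p = 0.0388), a call that ended without the cbp60a mock library of experiment 1 (0.0537) or 2 (0.0809) and without the Pma library of experiment 1 (0.112) or 3 (0.109).

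**Figure D2:**
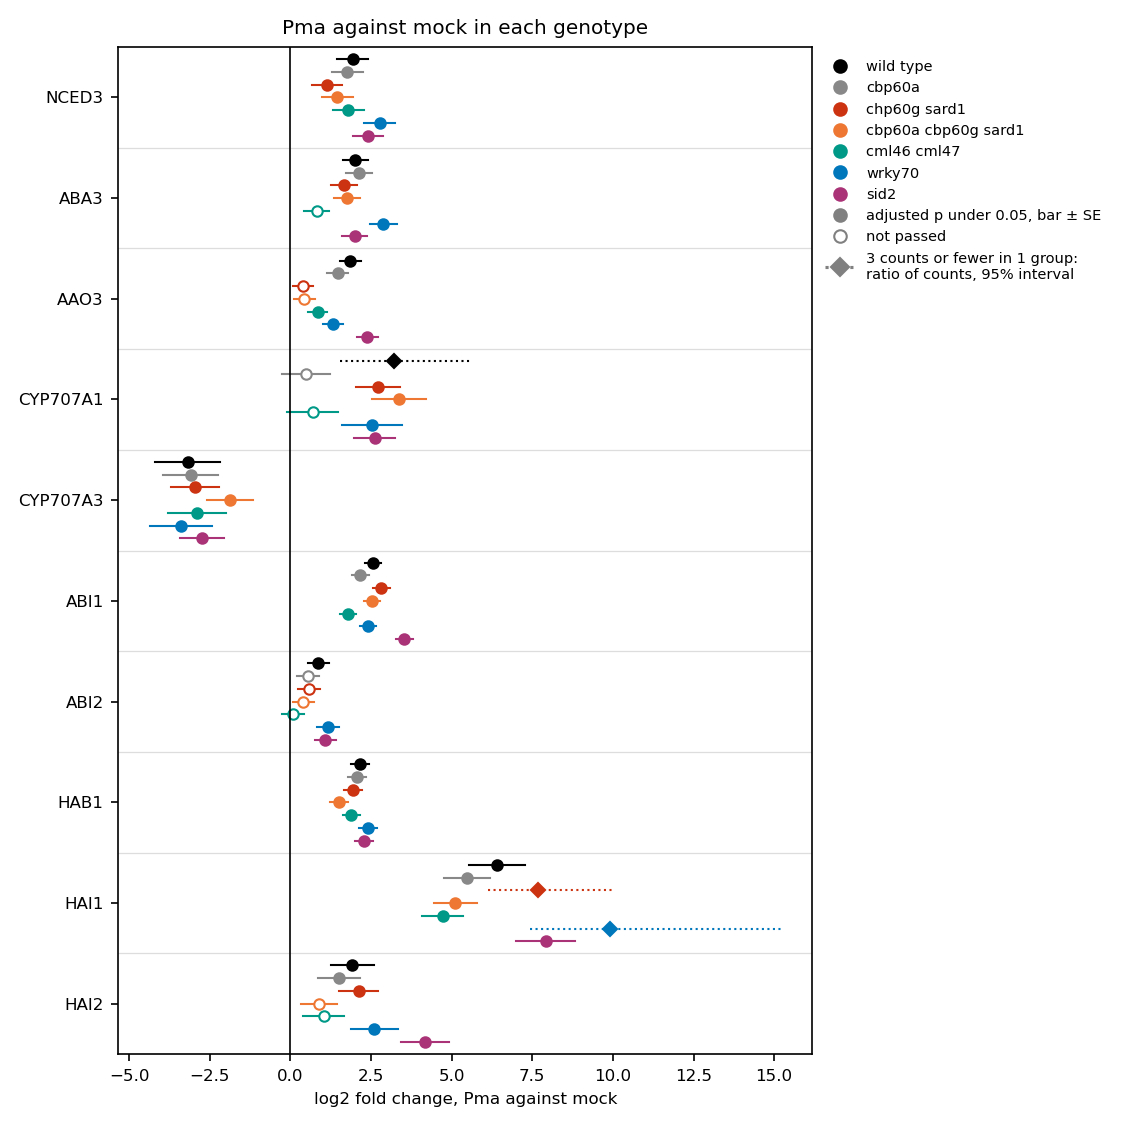
Log2 fold change of Pma against mock for each gene in each genotype, with a bar of ± 1 standard error; filled symbols have an adjusted p under 0.05, and diamonds give the ratio of counts with its 95% counting interval where a group held 3 counts or fewer. CYP707A3 lies left of 0 in all 7 genotypes, HAI1 lies farthest right, and AAO3 is near 0 in chp60g sard1 and the triple mutant.

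Before infection no test of a mutant against wild type passed for these genes in the fit of all libraries. AAO3 in cml46 cml47 passed when the mock libraries were fitted alone (change 0.78, adjusted p = 0.0444, edgeR). In mock leaves 0 of 60 tests passed with edgeR on all libraries, and DESeq2 also called 0. Of the 60 tests 6 had an unadjusted p under 0.05 with edgeR. They were 2 each in the triple mutant and sid2 and 1 each in cbp60a and cml46 cml47. Over all 15161 tested genes such a p was held by 1073, 743, 1295 and 2875 in the same order. In chp60g sard1 and wrky70, with 0 of the 10 genes, it was 1167 and 1271. The share of all tested genes that passed was 0.185% for cbp60a, 0.462% for chp60g sard1, 0% for the triple mutant, 5.24% for cml46 cml47, 0.0594% for wrky70 and 0.0132% for sid2. CYP707A3 in sid2 mock leaves was at 26.3, 25.3 and 5.66 CPM against 15.7, 3.66 and 5.64 CPM in wild type, a change of 1.20 ± 0.56 with unadjusted p = 0.0365 and adjusted p = 1 (edgeR). HAI2 in the triple mutant had 1.58 ± 0.68 (unadjusted p = 0.0242, adjusted p = 0.616, edgeR), with the high library of experiment 1 named above.

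After infection 2 of 60 tests against wild type passed, both in sid2 and both higher, where 14.5% of all tested genes passed. CYP707A1 was at 23.6, 23.6 and 31 CPM in sid2 Pma leaves and at 8.60, 9.0 and 3.93 CPM in wild type. The groups did not overlap, and the log2 fold change was 1.90 ± 0.57 (adjusted p = 0.0199). This call ended without the wild type Pma library of experiment 1 (adjusted p = 0.065) or 3 (0.124), without the sid2 Pma library of experiment 3 (0.0769), and without the experiment block (0.0555). ABI1 was at 331, 459.6 and 313 CPM in sid2 and at 144, 225 and 218 CPM in wild type, a change of 0.94 ± 0.24 (adjusted p = 0.00855) that held without any single library. It did not pass without the experiment block (0.0838) or without all of experiment 1 (0.0534) or 2 (0.198). In both genes the sid2 library was the higher in each of the 3 experiments. HAI1 was at 314, 456 and 315 CPM in sid2 and 96.2, 178 and 214 CPM in wild type, which did not overlap, but its change of 1.23 ± 0.48 did not pass (adjusted p = 0.0844; 0.0222 in a fit of Pma libraries alone). For HAI2 the values were 1.29 ± 0.52 and 0.0964, and for NCED3 0.83 ± 0.44 and 0.218. NCED3 passed in the fit of Pma libraries alone (0.0454). The median log2 fold change of the 10 genes in sid2 Pma leaves was 0.89, beside 0.10 over all tested genes. Cell type markers moved with the genotype: the summed mesophyll markers averaged 2543 CPM in wild type Pma leaves, 5767 CPM in sid2, 7714 CPM in chp60g sard1 and 8226 CPM in the triple mutant. Epidermal markers averaged 36.3, 88.1, 123 and 104 CPM in the same order, and guard cell markers 132, 132, 73.7 and 83.1 CPM. Their part in this and the following comparisons of Pma leaves was not tested.

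In the other 5 mutants 0 of 50 tests against wild type passed in Pma leaves with edgeR, and 0 with DESeq2. The share of all tested genes that passed was 13.1% in chp60g sard1, 10.1% for the triple mutant, 3.31% in wrky70, 0.125% in cml46 cml47 and 0% in cbp60a. Of the 50 tests 9 had an unadjusted p under 0.05 (edgeR), 3 each in chp60g sard1, the triple mutant and cml46 cml47. Over all 15161 tested genes 3956, 3539 and 1696 had such a p in these lines. In wrky70 and cbp60a, with 0 of the 10 genes, it was 2726 and 348. In chp60g sard1, CYP707A1 was at 17, 14.2 and 33 CPM, above all wild type Pma libraries, with a change of 1.63 ± 0.57 (adjusted p = 0.0539). In the triple mutant it was at 7.86, 21.6 and 30.4 CPM, where the change was 1.51 ± 0.58 (adjusted p = 0.0930). AAO3 lay on the other side, at 15.8, 28.3 and 21.8 CPM in chp60g sard1 (change -0.85 ± 0.30, adjusted p = 0.0564) and 17.3, 34 and 14.8 CPM in the triple mutant (change -0.86 ± 0.30, adjusted p = 0.0636). Several of these values sat beside the threshold. AAO3 passed when any 1 of 17 libraries was left out in chp60g sard1 (lowest adjusted p = 0.0361, without the wild type mock library of experiment 3) and any 1 of 6 in the triple mutant (lowest 0.0422, without the same library). CYP707A1 passed when any 1 of 6 was left out in chp60g sard1 (lowest 0.0293) and without the triple mutant's Pma library of experiment 1 in that line (0.0134). In a fit of the Pma libraries alone AAO3 passed in both (0.0117 and 0.0124), and CYP707A1 in chp60g sard1 (0.0262; 0.0318 with no filter). Without experiment 1 CYP707A1 had 0.00753 in chp60g sard1 and 0.00542 in the triple mutant. In cml46 cml47 all genes but CYP707A3 had a fitted value below wild type, with a median of -0.81 over the 10 beside 0.03 over all tested genes. The lowest unadjusted p there was that of ABA3, which was at 7.46, 9.37 and 13.6 CPM against 24.7, 23.7 and 18.5 CPM in wild type without overlap (change -1.13 ± 0.35, adjusted p = 0.196). Only 19 of all 15161 genes passed in that comparison. ABI2 followed at -1.07 ± 0.33 (adjusted p = 0.197), and without the cml46 cml47 Pma library of experiment 3 it had -1.59 and 0.0242.

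**Figure D3:**
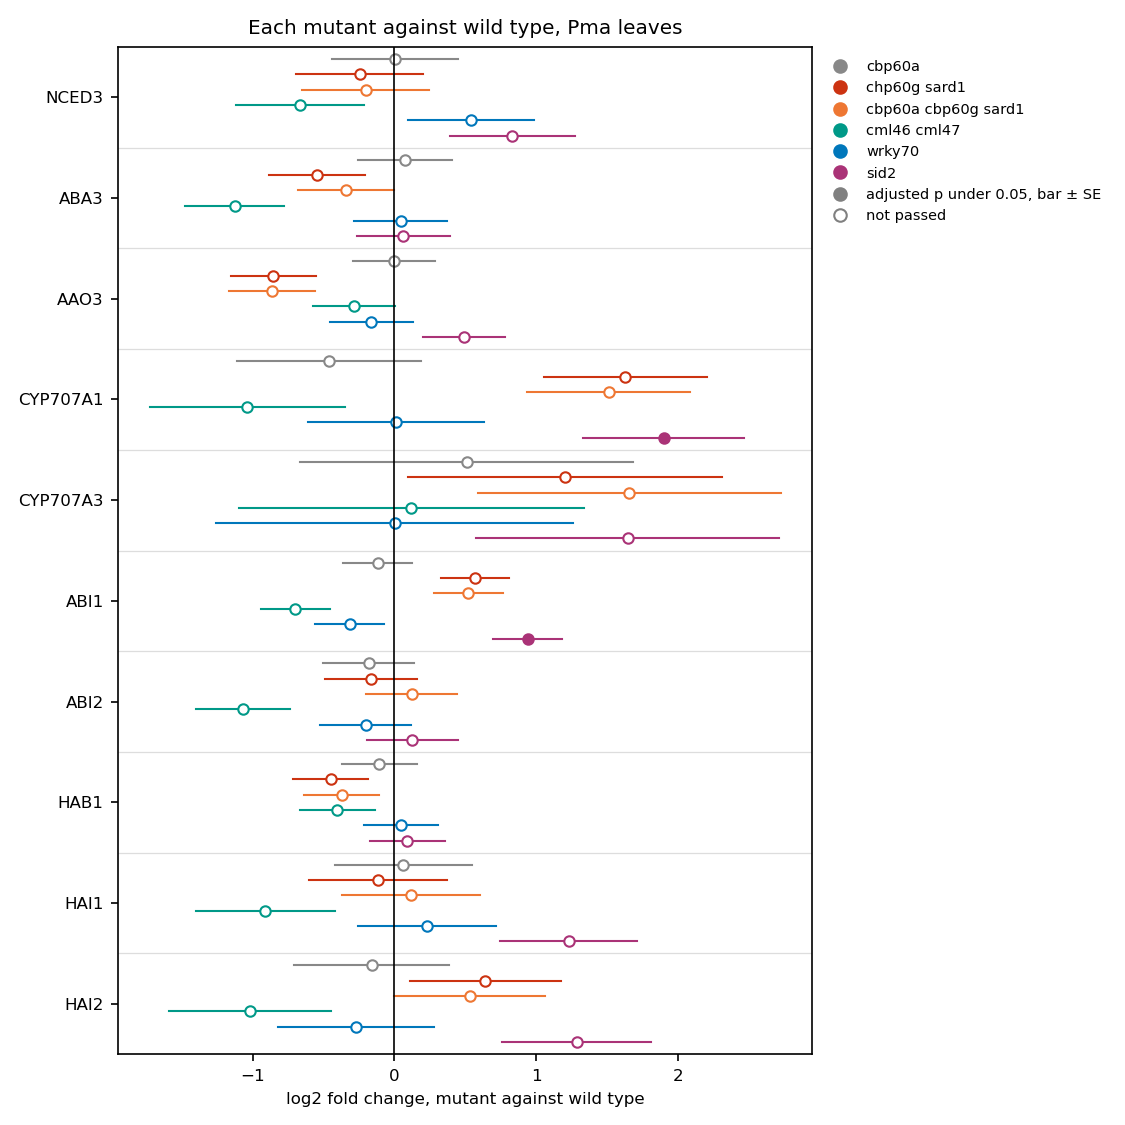
Log2 fold change of each mutant against wild type in Pma leaves, with a bar of ± 1 standard error; filled symbols have an adjusted p under 0.05. The filled points are CYP707A1 and ABI1 in sid2, and most cml46 cml47 points lie left of 0.

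The size of the Pma response itself was compared with wild type in each mutant, and 1 of 60 tests passed, on the lower side. AAO3 in chp60g sard1 was at 16.2, 16.3 and 15.7 CPM in mock and 15.8, 28.3 and 21.8 CPM in Pma, which overlapped, for a change of 0.39 ± 0.32 (adjusted p = 0.306). Set against the wild type response, the difference was -1.47 ± 0.46 (adjusted p = 0.0455) and had the same sign in all 3 experiments. It was close to the threshold. The call ended when any 1 of 14 libraries was left out (adjusted p = 0.0501 to 0.133), namely the wild type mock libraries of experiments 1 and 2, the wild type Pma libraries of 2 and 3, the chp60g sard1 mock libraries of 1 and 3, all 3 Pma libraries of chp60g sard1, all 3 of cbp60a, and the cml46 cml47 mock libraries of 2 and 3. It also ended with RLE factors, with no filter on low counts and without the block. In the triple mutant, which carries the same pair of mutations, AAO3 was at 16.4, 13 and 17.6 CPM in mock and 17.3, 34 and 14.8 CPM in Pma, and the difference in response was -1.43 ± 0.46 (adjusted p = 0.0689; 0.0353 without the wild type mock library of experiment 3 or the triple mutant mock library of experiment 2, and 0.0485 without its Pma library of experiment 2). In cbp60a, cml46 cml47, wrky70 and sid2 AAO3 rose, by 1.46 ± 0.32, 0.84 ± 0.30, 1.31 ± 0.31 and 2.38 ± 0.32. The cml46 cml47 call (adjusted p = 0.0171) ended without its Pma library of experiment 2 or its mock library of experiment 3 (0.0634 and 0.071), and without the block. Among all tested genes the difference in response passed for 6.81% in chp60g sard1, 3.88% for the triple mutant, 1.73% in sid2, 0.574% in cml46 cml47, 0.112% in wrky70 and 0% in cbp60a (edgeR). These comparisons, like those above, share the wild type libraries.

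The chp60g sard1 and sid2 lines were also compared directly in Pma leaves, where 6.51% of all tested genes passed. AAO3 was lower in chp60g sard1, at 15.8, 28.3 and 21.8 CPM against 33.6, 100.3 and 41.2 CPM in sid2, without overlap. The change was -1.35 ± 0.30 (adjusted p = 0.00419), and without the sid2 library of experiment 2, the one at 100.3 CPM, it was -0.93 (0.103). The other 9 genes did not pass, and the closest was HAI1 at -1.35 ± 0.48 (adjusted p = 0.0968). For CYP707A1 the change between these lines was -0.27 ± 0.51 (adjusted p = 0.838). The triple mutant and chp60g sard1, which differ by cbp60a, had 0 of 10 genes past the threshold with edgeR (0 with an unadjusted p under 0.05, and 0 with DESeq2), where 0.0066% of all tested genes passed. An unadjusted p under 0.05 (edgeR) was held there by 336 of 15161 tested genes.

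Within each gene the order of the 14 groups placed every Pma group above every mock group for NCED3, ABA3, AAO3, ABI1, HAB1 and HAI1 by their means. In that order no 2 neighbours differed beyond their spread (mean minus SD above the next mean plus SD), with 2 exceptions: the step from the lowest Pma group to the highest mock group of ABI1 (121 ± 40.1 CPM in cml46 cml47 Pma, 46.2 ± 7.69 CPM in triple mutant mock; mean ± SD, n = 3) and of HAI1 (89.5 ± 68.2 CPM and 4.31 ± 3.14 CPM). Among the 7 Pma groups sid2 had the highest mean for 9 of the 10 genes, with cbp60a highest for ABA3. The lowest Pma mean belonged to cml46 cml47 for 7 genes, to chp60g sard1 for 2 and to wrky70 for 1. In mock leaves wrky70 had the lowest mean for 6 genes, among them all the PP2Cs, and the triple mutant the highest for 5, again the PP2Cs. The mean of HAI2 ran from 2.59 ± 0.391 CPM in wrky70 mock leaves to 57.1 ± 51 CPM in sid2 Pma leaves. CYP707A3 ran the other way, from 19.1 ± 11.6 CPM in sid2 mock leaves down to 0.820 ± 0.850 CPM in wrky70 Pma leaves.

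Experiments left their own mark on some of the genes. Treatment took 91.1% of the sum of squares of log2 CPM over the 42 libraries for HAI1 and 85.2% for ABI1, but 22.7% for ABI2, where the experiment took 23.7%. HAB1 gave 62.7% to treatment and 30.8% to the experiment. Its 7 mock libraries averaged 16 CPM in experiment 1, 62.9 CPM in experiment 2 and 22.4 CPM in experiment 3, so that mock leaves of experiment 2 (45.2 to 77.02 CPM) reached the lowest Pma value of experiment 1 (46.8 CPM). NCED3 spread over the experiments more in infected than in mock leaves, with Pma means of 37.1, 75.8 and 128 CPM in experiments 1, 2 and 3 and mock means of 17.4, 22.1 and 15.8 CPM. CYP707A3 in mock leaves averaged 19.5, 10.2 and 5.68 CPM. The treatment by genotype share was highest for AAO3, at 16.6%. What differed between the experiments was not tested.

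**Figure D4:**
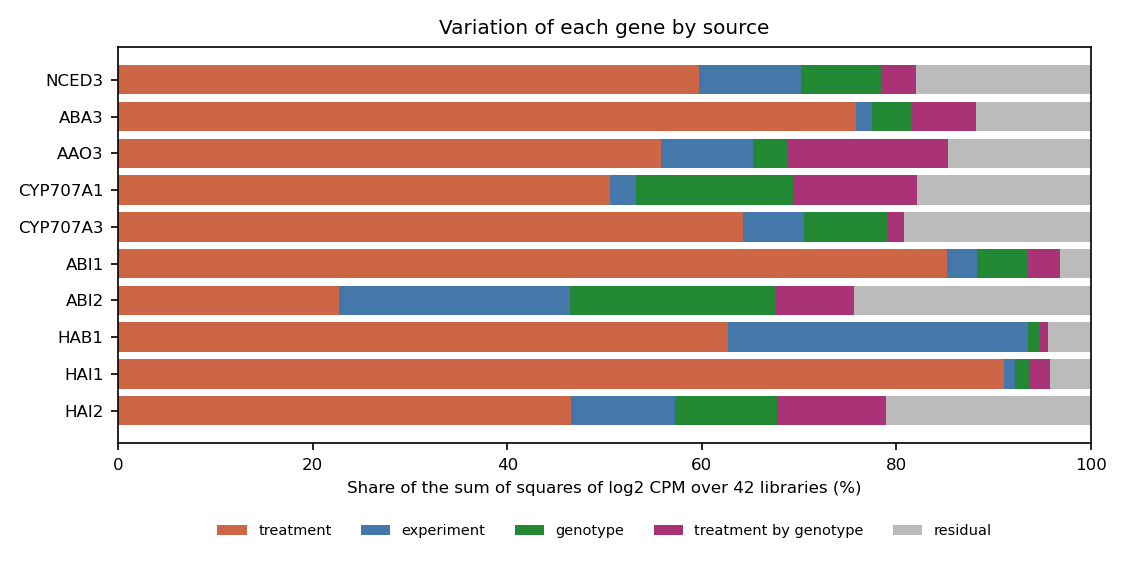
Share of the sum of squares of log2 CPM (prior count 2) over 42 libraries by source for each gene, in percent. Treatment dominates HAI1 and ABI1, and the experiment takes 30.8% for HAB1 and 23.7% for ABI2.

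The genes with the most similar patterns were taken by Pearson correlation of log2 CPM over the 14 group means, the 3 highest for each gene. The group means share the experiments and 1 large treatment contrast, so the values are a description. HAI1 was nearest to NAC019 (r = 0.992), a NAC transcription factor, then to AT2G27580 (0.992) and the aldehyde dehydrogenase gene ALDH7B4 (0.992). NCED3 was nearest to the NAC factor gene NAC032 (0.990). HAB1 was nearest to the cation exchanger CAX7 (0.995), and ABI1 to AT4G13110 (0.996). CYP707A3, which fell, was nearest to MYB96 (0.978), a transcription factor known for its role in abscisic acid responses, whose mean in wild type went from 4.25 to 1.72 log2 CPM. CYP707A1 was nearest to AT1G61890 (0.980), AAO3 to AT1G55265 (0.987), ABA3 to STR18 (0.980) and HAI2 to AT1G08230 (0.965) and HB-12 (0.963). ABI2 had the weakest nearest gene, AT2G47210 (0.936), and HAI2 (0.915) was also among its 3 nearest. Among the 10 genes themselves HAB1 and HAI1 were closest (0.990), and CYP707A3, the gene that fell, had its most negative value with HAB1 (-0.922). Ranked by Spearman correlation instead, only 3 of these 30 nearest genes were chosen again.

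Around these genes 59 further loci of the pathway were listed, 44 of which were tested, 1 (ABI4) had no row and 14 had too few counts. In wild type 17 rose and 13 fell, 30 of 44 in all where 66.3% of all tested genes passed. Other synthesis genes (7 tested of 10) gave 3 higher and 4 lower, with a median log2 fold change of -1.10. AAO1, an aldehyde oxidase related to AAO3, rose by 5.61 ± 0.64 (adjusted p = 6.81e-10), from 2.61, 3.66 and 0.940 CPM to 126, 128 and 117 CPM. AAO2, another of that family, fell 22.1-fold (95% counting interval 5.69 to 189) on 2 counts against 36. NCED5, a second cleavage enzyme, rose 39.1-fold (95% counting interval 6.69 to 1576) from 1 count to 48. Among the others ABA1 and ABA4, which act on the carotenoids before cleavage, and ABA2, which acts between NCED and AAO3, were lower, at -1.57 ± 0.28, -1.43 ± 0.35 and -1.10 ± 0.31. ABA1, ABA2 and ABA4 were named after their values were seen. Turnover genes (6 tested) gave 2 higher and 1 lower, with a median of 0.89. UGT71B6, which glucosylates the hormone, rose 48.9-fold (95% counting interval 13.2 to 408) from 2 counts to 120, and CYP707A4, another hydroxylase, rose by 2.44 ± 0.57, on the side of CYP707A1. BGLU33, a glucosidase of the vacuole that frees the conjugate, fell by 0.86 on the log2 scale (SE 0.31), a call lost without the wild type mock library of experiment 1 or 2.

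Transporters (4 tested) gave 2 higher and 1 lower, with a median of 2.36. ABCG40, a plasma membrane importer of the hormone, went from 0.653, 3.66 and 2.82 CPM in mock to 1392, 889 and 993 CPM in Pma, a change of 8.81 ± 0.90 (adjusted p = 1.33e-10) and the largest fitted one of the pathway. ABCG25, an exporter, rose by 3.04 ± 0.54, and NPF4.6, a transporter of the nitrate and peptide family, changed by -1.87 ± 0.30. Receptors (8 tested of 14) were split, 2 higher and 2 lower with a median of -0.34. PYL7 changed by -1.11 ± 0.33 (adjusted p = 0.00412; lost without the wild type mock library of experiment 1 or the Pma library of experiment 3), PYL8 by 0.69 ± 0.28, and PYL6 rose 4.62-fold (95% counting interval 1.33 to 24.6) on 3 counts against 17. The PYL8 call (adjusted p = 0.0303) ended without the wild type Pma library of experiment 1 or 2 or the mock library of 3, and that of PYL6 without the mock library of 1 or 2 or the Pma library of 3. Of the other PP2Cs HAB2 rose by 1.15 ± 0.22 (adjusted p = 2.49e-05), PP2CA had -0.20 ± 0.36 (adjusted p = 0.634), and AHG1 and HAI3 had too few counts to test; the median of the 2 tested was 0.47. PP2CA was named after its value was seen. SnRK2 kinases (3 tested) gave 0 higher and 1 lower, OST1 at -1.08 ± 0.44 (adjusted p = 0.0304), a call that held in 29 of 50 alternatives and ended when any 1 of 18 libraries was left out, 4 of them wild type (mock 2 and 3, Pma 1 and 3), and the median was -0.44. The bZIP and related factors (4 tested of 7) gave 0 higher and 2 lower, ABF3 at -1.60 ± 0.30 and ABF1 at -1.64 ± 0.35, with a median of -1.02. The ABF1 call ended without the block (adjusted p = 0.075).

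Output genes of the pathway (10 tested of 11) gave 7 higher and 2 lower, with a median of 2.87, or 1.92 with a gene that had no mock count placed at its bound. RD26, a NAC factor gene induced by drought, rose by 4.19 ± 0.49 and ATHB7, a homeodomain factor gene induced by the hormone, by 3.85 ± 0.49. RD22, a drought-responsive gene of the BURP family, went the other way, from 481, 482 and 583 CPM in mock to 13.4, 11.5 and 8.41 CPM in Pma, a change of -5.52 ± 0.63 (adjusted p = 3.89e-08). The fall of RD22 stood beside a fall of mesophyll and epidermal markers whose part in it was not tested.

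Of the 44 other pathway genes 9 passed against wild type in chp60g sard1 Pma leaves (4 higher, 5 lower, where 13.1% of all tested genes passed), 6 in the triple mutant (3 higher, 3 lower, 10.1%), 6 in sid2 (all higher, 14.5%), 2 in wrky70 (both higher, 3.31%) and 3 in cml46 cml47 mock leaves (all higher, 5.24%). Those with the lowest adjusted p, at most 4 in a comparison, are named here. In cml46 cml47 mock leaves CYP707A2, the hydroxylase best known from seeds, was higher at 4.28 ± 1.07 (adjusted p = 0.00109), GBF3, a bZIP factor, at 1.98 ± 0.59 (0.0293), and UGT71B6 was 8.14-fold (95% counting interval 2.04 to 70.8) higher. The CYP707A2 call rested on 105 counts against 4 in wild type, and ended without all of experiment 2 or all of experiment 3. The GBF3 call ended without the wild type mock library of experiment 1 or 2 or the cml46 cml47 mock library of experiment 3. The UGT71B6 call ended when any 1 of the wild type mock libraries or that same mutant library was left out. In Pma leaves BGLU18, a glucosidase that releases the hormone from its glucose ester, stood above wild type in 3 mutants, by 3.23 ± 0.76 in chp60g sard1, 3.00 ± 0.76 in the triple mutant and 2.46 ± 0.76 in sid2. Its levels were 30.6, 361 and 134 CPM in wild type, 1084, 858 and 4593 CPM in chp60g sard1, 306, 622 and 4968 CPM in the triple mutant and 1044, 921 and 1396 CPM in sid2. The libraries of these mutants were above the wild type ones but for 1 in the triple mutant, and both groups spread widely. Each call ended without the wild type Pma library of experiment 1 or 3 and without the mutant's own Pma library of experiment 3 (in sid2, each of its 3 alone). NCED5 was lower in chp60g sard1, with 1 count against 48, or 45.6-fold lower (95% counting interval 7.79 to 1836). It was also lower in the triple mutant (-2.38 ± 0.68; lost without the wild type Pma library of experiment 1 or its own of experiment 3). UGT71B6 and CYP707A4 were lower in the triple mutant, at -1.83 ± 0.39 and -1.46 ± 0.47, and RD22 higher in chp60g sard1 at 2.41 ± 0.64. The CYP707A4 call ended without the wild type Pma library of experiment 1 or 3 or the triple mutant one of 1 or 2, and the RD22 call without the wild type Pma library of experiment 3. RD22 stood higher beside the higher mesophyll and epidermal markers of that mutant given above, whose part in it was not tested. PYL6 held 1 count against 17 in chp60g sard1 and was 16.1-fold lower (95% counting interval 2.53 to 674), a call lost without the Pma library of experiment 3 of either line. It was higher in wrky70 at 1.83 ± 0.56, a call that held in 13 of 50 alternatives. NPF4.6 was higher in wrky70 at 1.07 ± 0.31, in 25 of 50 alternatives. In sid2 the receptor genes PYR1 (1.02 ± 0.28) and PYL5 (1.94 ± 0.54) and the exporter gene DTX50 (2.17 ± 0.64) were higher, each in 45 of 50 alternatives. Each of these 3 calls ended without the sid2 Pma library of experiment 2 and without the wild type Pma library of experiment 1, that of PYR1 also without the wild type library of experiment 3 and that of DTX50 also without that of 2.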

How the data were processed

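Leaf RNA of 42 samples was measured by Smart-3SEQ, which sequences tags near the 3' end of transcripts. The deposited table holds whole-number counts per locus, not normalized, for 24843 loci, 164 of them with no count in any library. Per the submitters' processing notes, the authors used bcl2fastq 2.17.1.14, STAR 2.4.2a and the TAIR10 build. The counting tool, annotation release, strand setting and whether copies were removed by the molecular tag are not given in the sources used here, so counts may include amplification copies and intervals cover counting error only.

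Counts were filtered with filterByExpr (minimum count 10, minimum total 15), which left 15161 loci, and scaled by TMM. One edgeR 4.0.16 quasi-likelihood model (R 4.3.3, limma 3.58.1) was fitted to all 42 libraries with a coefficient for each of 14 groups and for the experiment, and 27 contrasts were tested with Benjamini-Hochberg adjustment over all tested loci at 0.05. Groups were taken from the labels. By the series design each experiment holds a sample of every genotype and treatment. Equal replicate numbers in the titles were taken as the same experiment, which the titles themselves do not state. Residuals of libraries of one experiment correlated at a mean of 0.372, 0.351 and 0.133 over 91 pairs each, so the experiment was kept as a block. Replicates of a group differed beyond sampling noise (chi-square per degree of freedom 3.38 to 38.5). P-values set a contrast against the spread between libraries that remains after group and experiment, estimated over all 14 groups.

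Where a group held 3 counts or fewer, the ratio of scaled counts with a 95% counting interval is given. Fitted changes there are given only for CYP707A1 in wild type and CML46 in cml46 cml47 mock leaves, and they enter medians over genes. Levels are CPM of 3 libraries, and sums of squares and correlations used log2 CPM with a prior count of 2. Alternatives were RLE factors, no filter, no block, DESeq2 1.42.0, each treatment or genotype fitted alone, Spearman correlation, and leaving out each library or experiment. The 10 genes, the pathway and marker lists and the tests were chosen with earlier results of these data known. Other pathway genes were named by rule: of those that passed, the up to 3 of each list with the lowest adjusted p in wild type and the up to 4 over all lists in each comparison with wild type or of responses. Counts were simulated for sid2 against wild type in Pma leaves, with 14904 genes tested and 50 genes changed at each size. Recovered were 0 of 50 genes changed 1.5-fold, 9 of 50 at 2-fold, 37 of 50 at 4-fold and 49 of 50 at 8-fold. Of 14704 unchanged genes 4 were called. Far fewer genes changed there than the 2200 that passed in the real comparison, which makes the adjustment stricter. These shares are therefore no detection limit for the real data. Promoter windows of 300 bases were read from TAIR10.1 (RefSeq) with Python 3.11.15, and figures drawn with matplotlib 3.10.9.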

Additional observations from a re-analysis of the deposited data

Results flagged for a closer look

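3 differences between the Pma response of a mutant and that of wild type passed the test and are listed for a closer look. The response of AAO3 differed by -1.47 ± 0.46 on the log2 scale in chp60g sard1 (adjusted p = 0.0455, edgeR), and it was below wild type in 3 of 3 experiments. That of CYP707A4, another abscisic acid hydroxylase, differed by -2.50 ± 0.79 in chp60g sard1 (adjusted p = 0.0413, edgeR), with 3.66, 4.24 and 4.91 CPM in mock and 3.39, 7.55 and 2.24 CPM in Pma leaves of the mutant, against 0.653, 2.93 and 3.76 and 10.2, 14.7 and 12.3 CPM in wild type. It passed in 37 of 49 alternatives and ended without the wild type mock library of experiment 1 or 2, the wild type Pma library of 1 or 3, or the mutant's mock library of 1 or 3 or Pma library of 3. That of ATHB7, a homeodomain factor gene induced by the hormone, differed by -2.51 ± 0.67 in the triple mutant (adjusted p = 0.0321, edgeR), where it stood at 77.4, 43.2 and 12.9 CPM in mock and 45.6, 256 and 155 CPM in Pma, against 9.14, 19 and 13.2 and 113, 344 and 173 CPM in wild type. The difference was -4.20 in experiment 1, -1.55 in experiment 2 and -0.12 in experiment 3, and it ranged from -3.27 to -0.98 over the alternatives. It passed in 37 of 49 alternatives and ended when any 1 of 8 libraries was left out, namely the wild type mock libraries of experiments 1 and 2, the 3 wild type Pma libraries, and the triple mutant mock library of 1 and Pma libraries of 1 and 3. UGT71B6 also passed in chp60g sard1, but wild type mock held 2 counts, so no size is given. What set these differences was not tested.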

How the results depend on the processing

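Of 270 results of the 10 genes, 63 passed, and 44 of these passed under every alternative. Under some alternatives 19 were lost and 15 others passed. Direction changed in 0 results that passed in the report or under the alternative. Sign changes where neither passed were not counted. The response to Pma kept its count within the tolerance of 1.5 times throughout (57 with DESeq2, 59 in the report). In mock leaves 1 call, AAO3 in cml46 cml47, appeared when mock libraries were fitted alone. In Pma leaves the 2 calls against wild type became 4 with no filter, 7 when Pma libraries were fitted alone and 0 to 4 when single libraries or experiments were left out. With no replicate block for the experiment they became 0. The 1 difference in response became 0 with RLE factors, with no filter and with no replicate block, and 0 to 2 with libraries left out; fitting a treatment alone cannot give it. Between mutants 1 call became 2 with no filter, 3 with Pma libraries alone and 0 without the sid2 Pma library of experiment 2 or without experiment 2 (highest 1). Ranked by Spearman correlation, 3 of 30 nearest genes were shared. The 30 other pathway calls in wild type stayed within 1.5 times. The cause of these moves was not tested. CYP707A1, CYP707A3 and HAI1 rest on few counts in 1 treatment, which limits the size of their changes. In simulated data 9 of 50 genes changed 2-fold were recovered, but far fewer genes changed there than passed in the real sid2 comparison. That share is no detection limit for the real data.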
